A study of Schizosaccharomyces pombe with 6 samples.

Results

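The DASH complex, also called the Dam1 complex, is the assembly of 10 proteins that joins kinetochores to the plus ends of spindle microtubules. Its 10 subunit genes were picked out of the 6986 features of the count table by their common names in the authors' deposited table: dam1, duo1, ask1, spc19, spc34, dad1, dad2, dad3, dad4 and dad5. The family was chosen by the mutant and wild-type counts of dad5, which stood among the largest rises. The values of that comparison are therefore given for the members as a description, with no p-value, and they support nothing beyond themselves.

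A kinetochore is the protein structure on a centromere that holds the chromosome to the spindle. In budding yeast the DASH complex can form rings around microtubules, follows their growing and shrinking ends, and is essential. In fission yeast, Schizosaccharomyces pombe, it is dispensable for growth but helps sister kinetochores attach to opposite spindle poles.

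The data were polyadenylated RNA from log-phase, vegetatively growing h+ cells in YES, a rich medium, at 30 °C. There were 3 wild-type libraries, of the strain h+ rpb1-CTD-WT29::NatMX, and 3 libraries of the STF19 strain, also h+, which has the seb1-G476S mutation and rpb1-CTD-WT29::KanMX. Both strains carry the rpb1-CTD-WT29 allele of the largest RNA polymerase II subunit, and the drug marker beside it differs together with the seb1 allele. Seb1 is an essential RNA-binding protein of transcription termination, and the comparison asks how this allele, found in a screen for relief of transcription interference by long non-coding RNAs (lncRNAs), changes RNA levels. Each group is 1 strain, and the series' design text calls its 3 samples biological replicates. Whether they came from separate cultures is not stated further, so a test measures the spread between these samples.

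The libraries held 21013941 to 27910803 counts. The members had 29 to 628 counts per library, where 1 count corresponds to 0.0371 to 0.0445 CPM, which are counts scaled to the size of the library. The mRNA of seb1 itself had a wild-type level of 120 ± 12.3 CPM and a mutant level of 357 ± 14.1 CPM (mean ± SD, n = 3); counts per gene do not show which libraries carry the mutation. As a check of the h+ label, the P-factor gene map2 was at 4.93 ± 0.271 and 5.22 ± 0.788 CPM and the M-factor receptor gene map3, also of P cells, at 31.8 ± 4.301 and 65.3 ± 6.35 CPM in the wild type and mutant. The M-factor genes mfm1, mfm2 and mfm3 had means between 0.612 and 1.44 CPM in both groups. The M cell genes mam1 and mam2 had wild-type means of 40.6 and 15.8 CPM and mutant means of 36.0 and 24.7 CPM, so the M cell list was not silent in either strain. Among these markers map3, mam2 and mfm1 were called higher in the mutant. Wild-type replicate 3 stood farthest from its group in weakly expressed genes: coding genes below the median level (53.6 CPM over all libraries) deviated there by a median of 0.16 on the log2 scale from the wild-type mean. Every member lies in that weakly expressed group, and their median deviation in the same library was also 0.16. Wild-type replicate 1 lay nearly as far on the other side, at -0.122 for those coding genes and -0.145 for the members. Without wild-type replicate 3 the log2 fold change was -0.97 for spc19, -0.80 for spc34, -0.83 for dad3 and -0.545 for dad1. Each of these was smaller in size than with all libraries, and the 4 stayed called. The sign of dad4, which was not called, turned.

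The 10 subunit mRNAs did not move together. Among them dad5 rose 9.71-fold. A group of 4, spc19, spc34, dad3 and dad1, fell to between 0.434 and 0.614 of their wild-type level, and the remaining 5 did not pass the threshold. These are bulk samples, in which fewer mitotic cells and less RNA per cell cannot be told apart. A call here means an adjusted p under 0.05 in edgeR's quasi-likelihood test over all 6046 features tested. By that rule 55.0% of all features were called, 26.7% higher and 28.4% lower, beside 5 of 10 members, and nothing is read from the members' count because the choice of the family used this contrast. All 10 members are in the less abundant part of the coding genes, below the median level, where 45.7% were called lower and 13.4% higher. The median log2 fold change was -0.21 over the 10 members, -0.30 over the coding genes below the median level and -0.0078 over all features. For 6 of 10 members no mutant library fell within the wild-type range or the reverse, against 63.9% of all features.

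Dad5, the fission yeast counterpart of budding yeast Hsk3, is a small subunit of the complex. Its gene (SPCC417.02, chromosome III) is annotated with 1 exon and encodes 94 amino acids. The dad5 mRNA was at 2.57, 2.84 and 2.23 CPM in wild-type replicates 1, 2 and 3, from 60, 73 and 50 counts. It was at 25.9, 23.3 and 24.9 CPM in mutant replicates 1, 2 and 3, from 600, 628 and 579 counts. Every mutant library lay far above every wild-type library, and the mutant values were close to each other. The means were 2.55 ± 0.307 and 24.7 ± 1.31 CPM, a 9.71-fold difference. The log2 fold change was 3.27 (SE 0.141), and between 3.18 and 3.36 when any one library was left out. It was the third largest among the 4953 coding genes tested.

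**Figure D1:**
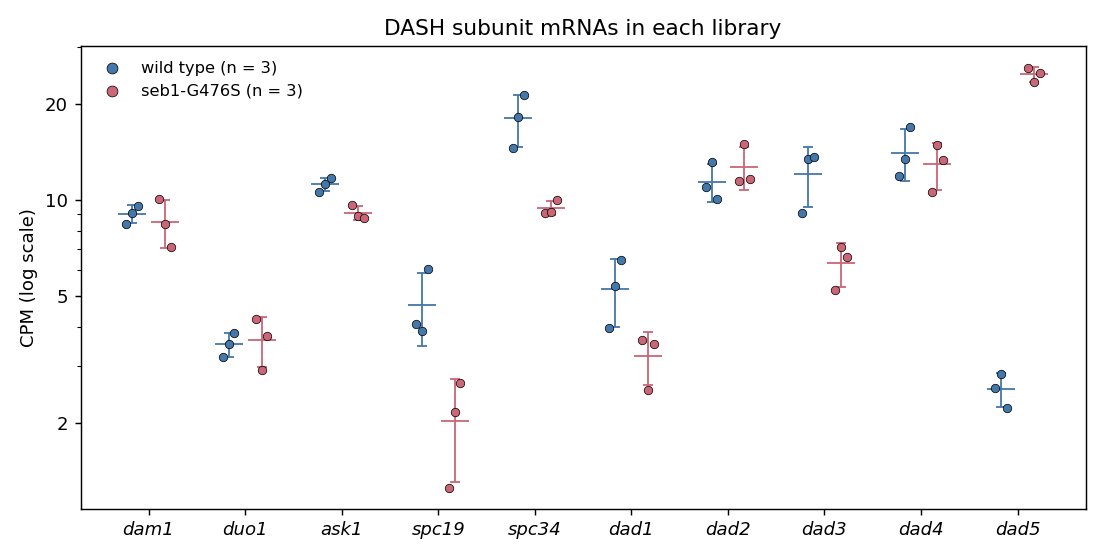
Level of each DASH subunit mRNA in CPM (log axis) in the 3 wild-type (blue) and 3 seb1-G476S (red) libraries; points are libraries, horizontal lines and bars are the mean and SD. The red points of dad5 lie far above the blue ones, those of spc19, spc34, dad1 and dad3 lie below, and the others are close together.

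In budding yeast Dam1 and Duo1 are subunits that contact the microtubule, and Dam1 is a main target of the Aurora B kinase. For dam1 (SPAC589.08c, chromosome I), the wild-type libraries held 8.41, 9.05 and 9.57 CPM and the mutant libraries 10.02, 8.39 and 7.11 CPM. The groups overlapped, with a log2 fold change of -0.083 (SE 0.156). For duo1 (SPBC32F12.08c, chromosome II), the wild-type libraries held 3.22, 3.54 and 3.83 CPM and the mutant libraries 4.23, 2.93 and 3.75 CPM. These groups overlapped too, with a log2 fold change of 0.04 (SE 0.183).

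Ask1, a subunit that is phosphorylated by the cyclin-dependent kinase in budding yeast, had the mRNA that varied least between the wild-type libraries. For ask1 (SPBC27.02c, chromosome II), the wild-type libraries held 10.6, 11.2 and 11.7 CPM and the mutant libraries 9.63, 8.87 and 8.74 CPM. The groups did not overlap, and the log2 fold change of -0.30 (SE 0.123) did not pass the threshold. It passed with library totals alone as scaling, at -0.42, and with the replicate number as a block, at -0.30.

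Spc19 and Spc34 are partner subunits first found in spindle pole preparations of budding yeast, and both mRNAs fell. For spc34 (SPAC8C9.17c, chromosome I), the wild-type libraries held 14.6, 18.1 and 21.3 CPM and the mutant libraries 9.11, 9.13 and 9.95 CPM. The wild-type libraries were spread and all above the closely grouped mutant ones, with a log2 fold change of -0.94 (SE 0.153). For spc19 (SPCC1223.15c, chromosome III), the wild-type libraries held 4.08, 3.89 and 6.05 CPM and the mutant libraries 1.25, 2.15 and 2.67 CPM. This was the largest fall of the family, with a log2 fold change of -1.20 (SE 0.277), and it rests on 29 to 62 counts per mutant library. Wild-type replicate 3 was the highest library for both genes. With one library at a time left out, the log2 fold change ranged from -1.07 to -0.80 for spc34 and from -1.45 to -0.95 for spc19, and both stayed called.

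The Dad subunits are small proteins named for their association with Duo1 and Dam1. In fission yeast Dad1 stays on the kinetochore through the cell cycle, while other subunits are found there in mitosis. For dad1 (SPAC16A10.05c, chromosome I), the wild-type libraries held 3.95, 5.36 and 6.45 CPM and the mutant libraries 3.63, 2.52 and 3.53 CPM. The groups did not overlap, but the lowest wild-type library was close to the highest mutant one, and the log2 fold change was -0.71 (SE 0.221). The call was lost without wild-type replicate 2, at -0.69, and without mutant replicate 2, at -0.55. For dad3 (SPAC14C4.16, chromosome I), the wild-type libraries held 9.10, 13.4 and 13.6 CPM and the mutant libraries 5.23, 7.13 and 6.63 CPM. It fell with a log2 fold change of -0.92 (SE 0.191), and each mutant library was below each wild-type library.

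The remaining Dad genes kept overlapping groups. For dad2 (SPAC1805.07c, chromosome I), the wild-type libraries held 10.98, 13.1 and 10.1 CPM and the mutant libraries 11.4, 14.9 and 11.6 CPM, giving 0.15 (SE 0.156) as log2 fold change. For dad4 (SPBC3B9.22c, chromosome II), the wild-type libraries held 11.8, 13.4 and 16.9 CPM and the mutant libraries 10.5, 14.9 and 13.3 CPM, giving -0.12 (SE 0.172). The value of dad4 turned to 0.031 without wild-type replicate 3. A call missed at these standard errors does not show that either gene kept its level.

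The levels of the subunits relative to each other were compared per length of annotated transcript, as CPM per kb. In the wild type the order ran from spc34 (15.0 ± 2.81 CPM per kb) through dad2, dam1, dad3, dad4, spc19 and dad1 to ask1 (9.36 ± 0.464), and each neighbouring pair in that order overlapped over its 3 libraries. A gap followed, with duo1 at 3.08 ± 0.266 and dad5 at 2.77 ± 0.334 CPM per kb, which overlapped each other and lay below every other subunit. In the mutant dad5 stood first, at 26.9 ± 1.43 CPM per kb, with its lowest library (25.4) above the highest library of dad2 (18.5), the next in order. The lowest places in the mutant were held by spc19 (4.24 ± 1.502) and duo1 (3.17 ± 0.573), which overlapped. Among coding genes, dad5 had a higher level per length than 4.70% in the wild type and 48.8% in the mutant.

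Summed over the 10 subunits, the level per length was 99.2 ± 12.2 CPM per kb in the wild type and 99.9 ± 1.28 in the mutant. The share held by dad5 in that sum was 3.25%, 3.05% and 2.20% in the wild-type libraries and 28.5%, 25.0% and 27.3% in the mutant libraries. Without dad5, the other 9 subunits summed to 83.3, 98.0 and 108 CPM per kb in the wild type and 70.6, 75.9 and 72.4 in the mutant. The wild-type sums differed among themselves, with replicate 1 lowest and replicate 3 highest, and all lay above the mutant sums. Per kb of coding sequence the wild-type order changes, because annotated untranslated stretches differ between the genes: duo1 was lowest at 4.16 and dad5 next at 8.93, while in the mutant dad5 was first at 86.7 and dad4 next at 58.9 CPM per coding kb.

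**Figure D2:**
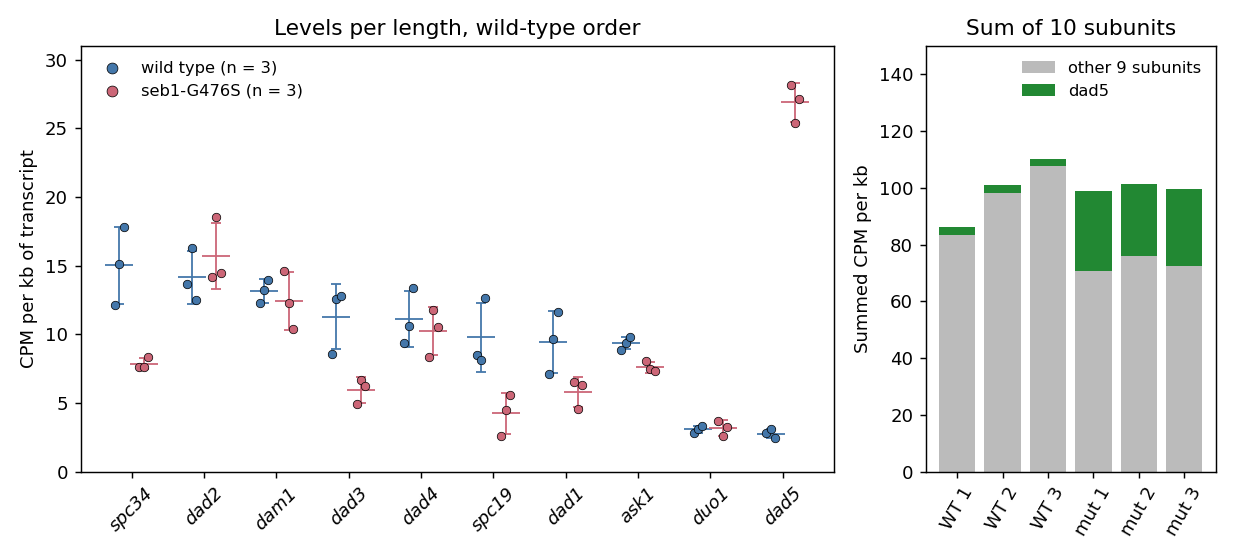
Left, CPM per kb of annotated transcript for each subunit in wild-type (blue) and seb1-G476S (red) libraries, ordered by the wild-type mean, with points for libraries and lines and bars for mean and SD (n = 3). Right, the sum over the 10 subunits in each library, with dad5 in green and the other 9 in grey: dad5 makes up 2.83% of the sum on average in the wild type and 26.9% in the mutant.

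The members share short coding sequences, with a median of 372 bases against 1152 for all tested coding genes. On chromosome I sit 5 of them, with 3 on chromosome II and 2 on chromosome III, and none is next to another member. In the annotation, 6 members overlap another feature of the table and 4, spc19, spc34, dad1 and dad5, overlap none. The overlap was on the same strand for duo1, with the ubiquitin ligase gene SPBC32F12.07c, and for ask1, with meu25-antisense-1 (SPNCRNA.1446). Reads in such a shared stretch cannot be assigned to 1 gene, so the levels of duo1 and ask1 are uncertain. For dam1 (with csr101), dad4 (with vti1), dad2 (with SPNCRNA.853) and dad3 (with SPNCRNA.1062) the partner lies on the opposite strand, and the sources used here do not state whether reads were counted by strand.

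The surroundings of dad5 were examined for a change of the same kind. The nearest feature of the table upstream of dad5 is SPNCRNA.1215, an lncRNA on the same strand that runs antisense to SPCC417.03. Its wild-type libraries held 10.3, 10.4 and 13.7 CPM and its mutant libraries 9.15, 11.02 and 10.1 CPM, so the groups overlapped (log2 fold change -0.18, SE 0.153, edgeR adjusted p = 0.329). The nearest feature downstream is gaf1, a GATA-type transcription factor gene on the same strand, at 274 ± 13.3 and 291 ± 1.31 CPM (log2 fold change 0.09, SE 0.054, adjusted p = 0.179). Neither neighbour passed the test. A count per gene does not show where the RNA counted for dad5 begins.

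**Figure D3:**
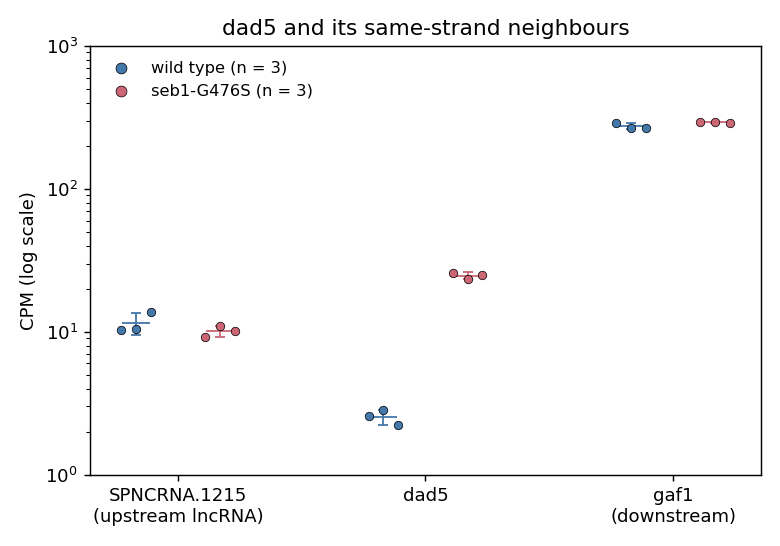
CPM (log axis) of the upstream lncRNA SPNCRNA.1215, dad5 and the downstream gene gaf1, all on 1 strand, in 3 wild-type (blue) and 3 seb1-G476S (red) libraries, with mean and SD. In the middle pair the mutant points lie near 24.7 CPM and the wild-type points near 2.55 CPM, while the outer pairs lie close together.

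Of 26 neighbours and overlapping features of the 10 members, 25 were tested, with 6 higher and 10 lower. Of all features tested, 26.7% were called higher and 28.4% lower. The neighbours include 20 coding genes, of which 12 are below the median level, where 13.4% were called higher and 45.7% lower. A same-strand feature was nearest upstream for 6 of 10 members, and it was an lncRNA for dad5 and dad2. The lncRNA upstream of dad2, SPNCRNA.854, rose from 2.78 ± 0.615 to 4.195 ± 0.757 CPM (0.59 on the log2 scale, adjusted p = 0.0397), while dad2 itself was not called. SPNCRNA.853, opposite dad2, rose from 0.268 ± 0.223 to 0.845 ± 0.150 CPM (1.65 on the log2 scale, adjusted p = 0.0161). The same-strand partner of ask1, meu25-antisense-1, rose by 0.33 on the log2 scale (adjusted p = 0.022), and meu25, upstream of ask1 on the other strand, had -0.76 (adjusted p = 0.0137). SPNCRNA.854 lost its call without wild-type replicate 1 (adjusted p = 0.103), mutant replicate 2 (0.130) or mutant replicate 3 (0.138), with library totals alone (0.121) and in DESeq2 (0.0728). SPNCRNA.853 lost it without wild-type replicate 2 (adjusted p = 0.0504) or mutant replicate 3 (0.0554) and in DESeq2 (0.0519). The call of meu25-antisense-1 was lost without any one mutant library (adjusted p from 0.056 to 0.0889) and with library totals alone (0.110), and that of meu25 without wild-type replicate 2 (0.0601) or mutant replicate 2 (0.0645).

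Around the 4 members that fell, 4 neighbours were lower, 3 were higher and 1 was not called, beside 28.4% lower and 26.7% higher among all features tested. Upstream of dad1 on the same strand, nse2, a SUMO ligase gene of the Smc5-6 complex, fell from 13.0 ± 2.47 to 6.19 ± 0.221 CPM (-1.07 on the log2 scale, adjusted p = 0.000595), and rho4, a GTPase gene downstream, had -0.43 (adjusted p = 0.000743). Upstream of dad3, on the other strand, smc5 of the same complex fell from 36.0 ± 9.79 to 21.6 ± 2.82 CPM (-0.74 on the log2 scale, adjusted p = 0.00712). Without wild-type replicate 3 smc5 was at -0.50 (adjusted p = 0.00252). Downstream of dad3, the meiotic kinase gene mek1 was called at 1.02 (adjusted p = 0.0282) from 0.281 CPM, a call lost without wild-type replicate 2 (0.0947), wild-type replicate 3 (0.0565), mutant replicate 1 (0.103) or mutant replicate 3 (0.0517) and in DESeq2 (0.212). Downstream of spc19, set11, a methyltransferase gene for a ribosomal protein, had -0.999 (adjusted p = 0.00197). Around spc34 the direction was opposite, with mug63 at 0.39 (adjusted p = 0.00825; 0.0557 without mutant replicate 2 and 0.0749 with library totals alone) and the mitochondrial transporter gene atm1 at 0.37 (adjusted p = 0.00329).

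Beside the members that were not called, several neighbours fell by small amounts. The ubiquitin fusion gene ubi5, upstream of dam1, was at -0.25 (log2, adjusted p = 0.00978), and the autophagy gene atg1801, downstream of dam1, had -0.43 (adjusted p = 0.0125). The heme synthesis gene hem2, downstream of dad2, had -0.20 (adjusted p = 0.0109). The SNARE gene vti1, opposite dad4, had -0.47 (adjusted p = 0.0289), and the sorting gene vps36, downstream of dad4, had -0.44 (adjusted p = 0.0144). Without mutant replicate 1 the adjusted p was 0.056 for atg1801, 0.104 for vti1 and 0.0599 for vps36. Without mutant replicate 2 it was 0.0523 for vti1 and 0.0646 for vps36, and without mutant replicate 3 it was 0.0624 for vti1. Without wild-type replicate 3 the log2 fold change of vti1 was -0.26 (adjusted p = 0.0335). The number of higher neighbours was 3 with library totals alone, 3 in DESeq2, 3 when mutant replicate 2 was left out and 2 when mutant replicate 3 was.

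Most other genes listed for the kinetochore were lower in the mutant. Of 31 listed genes of the outer and inner kinetochore, 20 were lower and 3 higher, with a median log2 fold change of -0.63, and 29 of the 31 are below the median level of coding genes, where 45.7% were called lower. The count lower was 18 in DESeq2 and 16 to 20 with one library left out, the lowest without mutant replicate 1 or mutant replicate 3. The share of 45.7% is from the main fit and was not recomputed for these alternatives. The 10 genes of the Ndc80, Mis12 and Spc7 assemblies, the microtubule-binding core to which DASH is recruited, were lower in 10 of 10 cases, with a median of -0.86. This part of the list was not among the planned lists, and its count was not recomputed under the alternatives. The 8 genes of the list not called were mis6, mis15, mal2, fta1, fta2, fta3, fta4 and mis18. They and the 3 higher genes all lie outside this part. All 10 of its genes are below the median level of coding genes. Among them mis14 fell from 12.8 ± 2.44 to 5.04 ± 0.408 CPM (-1.34 on the log2 scale, adjusted p = 0.000217), and nuf2, a partner of Ndc80, from 8.55 ± 1.70 to 4.03 ± 0.411 CPM (-1.08, adjusted p = 0.000906). The largest fall of the list was that of the CENP-C gene cnp3, from 28.6 ± 12.8 to 8.21 ± 1.67 CPM (-1.80, adjusted p = 0.00079). Without wild-type replicate 3 cnp3 was at -1.40 (adjusted p = 3.24e-05). The gene mis17 of the inner kinetochore fell by 1.01 on the log2 scale (adjusted p = 0.00066). The higher genes were cnp1, the centromeric histone H3, mhf2, a histone-fold protein gene, and pfl8, listed under its older name fta5, whose product in the authors' deposited table is a cell surface flocculin and not a kinetochore protein. The count of higher genes in this list was 2 with library totals alone, without wild-type replicate 2 and without any 1 mutant library.

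Of 21 genes of kinetochore microtubules and the spindle, 9 were lower and 5 higher, with a median log2 fold change of -0.26. In this list 15 genes are below the median level of coding genes, where 45.7% were lower, 13.4% higher and the median was -0.30. The count lower and the median of the list lie near the values of that group. The rest of the list is at or above that level, where 431 of 2477 coding genes were lower and 869 higher. The kinesin-14 gene pkl1 had -0.85 (adjusted p = 0.0125, and 0.0554 without mutant replicate 1), csi1, which links centromeres to the spindle pole body, -0.70 (adjusted p = 0.00213), the gamma-tubulin complex gene alp6 -0.62 (adjusted p = 0.00224) and the kinesin gene tea2 -0.60 (adjusted p = 0.00585). The higher genes were klp5, dis1, atb2, nda3 and csi2. Klp5 and Klp6 form the kinesin-8 pair that acts beside DASH in fission yeast. The klp5 mRNA rose from 70.6 ± 3.23 to 88.0 ± 7.55 CPM (0.32 on the log2 scale, adjusted p = 0.00553), and klp6 had -0.18 (adjusted p = 0.263). The count of higher genes was 3 with library totals alone and 3 when wild-type replicate 2, mutant replicate 2 or mutant replicate 3 was left out.

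Among 15 genes of the spindle checkpoint, the Aurora kinase complex and sister chromatid separation, 8 were lower and 1 higher, with a median of -0.46. Of the 15, 11 are below the median level of coding genes, where the share called lower was 45.7% and the median was -0.30. The rest of the 15 are at or above that level, where 431 of 2477 coding genes were lower and 869 higher. The list mixes both levels, so no excess over either group is read from its count or median. The shugoshin gene sgo1 was at -1.82 (log2, adjusted p = 0.000131), the checkpoint genes mad1 and bub3 -1.49 (adjusted p = 0.000658) and -0.85 (adjusted p = 0.00259), and sgo2 -0.78 (adjusted p = 0.0129). Without wild-type replicate 3 sgo2 was at -0.47 (adjusted p = 0.00693) and mad1 at -1.20 (adjusted p = 5.55e-05). The Aurora kinase gene ark1 was at 14.2 ± 1.42 and 12.2 ± 1.07 CPM (-0.23, adjusted p = 0.158). In the Aurora kinase complex, the INCENP gene pic1 was lower, at -0.70 (adjusted p = 0.00695). The survivin gene bir1 was not called (-0.15, adjusted p = 0.4335). The higher gene was nbl1, the Borealin subunit of that complex, and its call was lost without mutant replicate 2. Of the general genes of mitosis and septation, 19 were tested of 20 listed, and 4 of the 19 are below the median level. At or above that level, 431 of 2477 coding genes were lower and 869 higher, with a median of 0.083. The list had 8 lower and 4 higher, with a median of -0.19. The higher ones included exg1, a glucanase gene, at 0.72 (adjusted p = 1.68e-05) and mbx1, a regulator of mitotic transcription, at 0.44 (adjusted p = 0.0207). The call of mbx1 was lost without wild-type replicate 2 (adjusted p = 0.0819), mutant replicate 2 (0.0665) or mutant replicate 3 (0.0551) and with library totals alone (0.133), which left 2 higher genes. The lower ones included the septum-dissolving enzyme gene agn1 at -0.51 (adjusted p = 6.35e-05) and cfh4 at -0.51 (adjusted p = 7.02e-05). The mitotic regulators plo1 (-0.22, adjusted p = 0.174) and cdc13 (-0.0079, adjusted p = 0.921) were not called. The mitotic regulator cdc25 was called higher, at 0.28 (adjusted p = 0.00177).

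**Figure D4:**
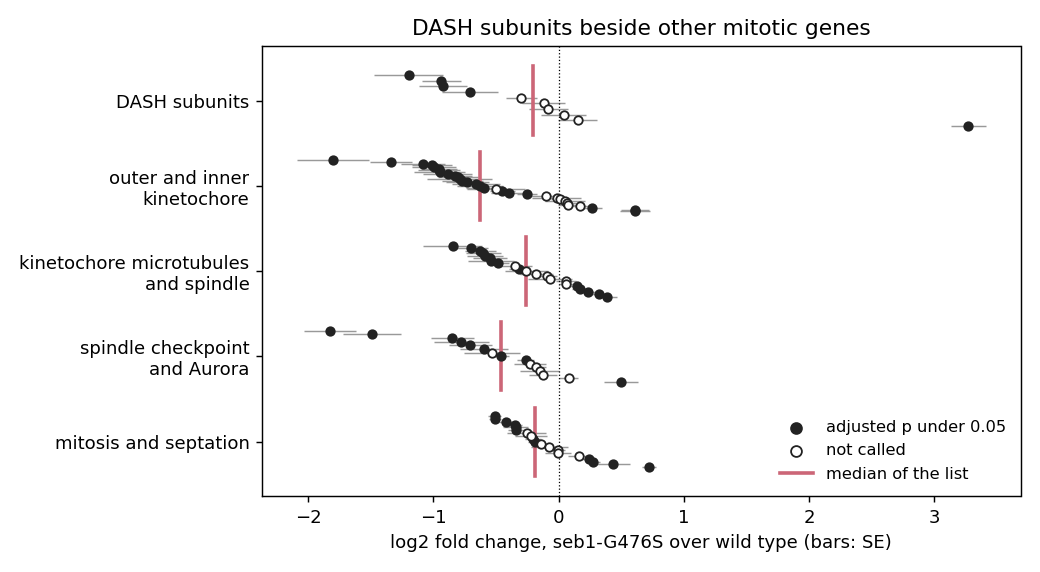
Log2 fold change of seb1-G476S over wild type, with SE, for the DASH subunits and the 4 other gene lists; filled points passed an adjusted p of 0.05 in edgeR, open points did not, and red lines are medians. The DASH row spans from spc19 at -1.20 to dad5 at 3.27, and the outer and inner kinetochore row has its median at -0.63.

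The features whose profile over the 6 libraries was nearest to that of dad5 were sought among 5019 others with at least 5 CPM on average, by Euclidean distance of log2 CPM centred on each feature's mean. The nearest was tgp1, a glycerophosphodiester transporter gene, at a distance of 0.162. Its wild-type and mutant levels were 11.2 ± 0.879 and 104 ± 8.03 CPM. The next were the uncharacterised gene SPBC1711.15c at 0.636, the cation ATPase gene cta3 at 0.68, the transcription factor gene atf31 at 0.741 and rex3-antisense-1 at 0.789. All 5 were higher in the mutant, which the choice by likeness to dad5 fixes.

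The authors' deposited table gives dad5 a log2 fold change of 3.31 with a standard error of 0.193, and group averages of 59.1 and 588 size-factor-scaled counts for the wild type and the mutant. In the authors' deposited table spc19 has -1.16, spc34 -0.89, dad3 -0.88 and dad1 -0.66. The mean over libraries in the authors' deposited table is 126 for dad5, which is 0.391 of the mean of its 2 group averages, and this ratio was 0.908 to 1.38 for the other 9 members. Libraries other than these 6 may have entered that mean, and they were not used here.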

How the data were processed

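Per the submitters' processing notes, HISAT2 2.1.0, SAMtools, HTSeq 0.10.0 and DESeq2 were used with genome build ASM294v2. The sources used here give neither the annotation release nor the strand option. The authors deposited raw counts per feature, as whole numbers. The authors' deposited comparison holds log2 fold changes, their standard errors and test statistics as scores, p-values, and group averages as a signal of counts divided by size factors. Of 6987 rows, a repeated identifier was summed. Names come from the authors' table. Lengths and neighbours come from RefSeq's ASM294v3 (6833 features matched directly, 13 by synonym, 140 not), whose coordinates are not given because the assembly differs.

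The test was edgeR 4.0.16 (R 4.3.3), quasi-likelihood, two-sided, TMM scaling, filterByExpr with a minimum count of 10, with Benjamini-Hochberg adjustment over 6046 features and 4 residual degrees of freedom. All 10 members passed the filter. Each SE was obtained by dividing the log2 fold change by the root of its F statistic. No 2 libraries agreed within sampling noise (lowest chi-square per degree of freedom 3.87). DESeq2 1.42.0, other scalings, no filter, a replicate block and leaving out each library were alternatives.

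The members, lists and tests were chosen with earlier results of these data known. Named are the members, their called neighbours, up to 4 called genes per list by size of change, and the 5 features most like dad5. Other list genes named, klp6, ark1, plo1 and cdc13 among them, were chosen after their values were seen.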

Additional observations from a re-analysis of the deposited data

How the results depend on the processing

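The count of DASH members was 1 higher and 4 lower, and 1 higher under each of the 5 alternatives that keep every library and the 6 that leave 1 out. The count lower was 5 with library totals alone and with the replicate block, where ask1 joined, and 3 to 4 without one library. Scaling by library totals moved the median log2 fold change of all features by -0.118. It gave 3 higher spindle genes instead of 5, 2 higher mitotic genes instead of 4, and 3 higher neighbours instead of 6, which was also 3 in DESeq2. Without one library the higher spindle genes numbered 3 to 5, the higher checkpoint genes 0 to 1 and the higher neighbours 2 to 6. The sign of members near 0 turned: duo1 was at -0.081 with library totals and ranged from -0.083 to 0.18 without one library, dam1 from -0.22 to 0.0203 and dad4 from -0.24 to 0.031. The cause was not tested. Over 48 named features, 486 recomputed values kept direction and side of the threshold, 34 lost and 2 gained the call, and 6 turned. Replicate numbers share no stated origin. The correlations of same-numbered libraries' deviations were 0.357, 0.0585 and 0.263, and those of differently numbered libraries ran from -0.301 to 0.0658. Whether equal numbers share a batch was not tested. The main test did not pair samples, and the replicate block is the alternative that does. The lower outer and inner kinetochore genes numbered 20, against 21 with the replicate block, 18 in DESeq2 and 16 to 20 without one library. Among the members, spc19 had the lowest count in a library, 29.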
